A study of Homo sapiens with 66 samples.

Results

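RCC4 cells carried 256 genomic sites at which HIF-1α, but not HIF-2α, was called. These were the intervals found in both RCC4 HIF-1α replicates (899 after merging) that overlapped no peak of either HIF-2α replicate, and they are referred to as HIF-1-only sites. The other 643 HIF-1α sites met a HIF-2α peak, in both replicates at 461 (sites with both isoforms) and in 1 replicate at 182. Conversely, 295 of 1211 HIF-2α sites met no HIF-1α peak (HIF-2-only sites). All RCC4 HIF-α sites merged gave 1646 intervals, the background against which shares of the 256 are read, and all sites found in both replicates of any antibody and condition across the series gave 9321. The 256 sites were thus chosen by their RCC4 HIF-1α and HIF-2α calls, which are given as a description only. By the rule every one had a peak in both HIF-1α libraries, where 81.2% and 55.4% of all RCC4 sites had one, and none had a peak in the HIF-2α libraries, where 83.2% and 74.7% did.

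Hypoxia-inducible factor (HIF) is a dimer of an oxygen-regulated α subunit, HIF-1α or HIF-2α, and the shared partner HIF-1β. In oxygenated cells the α subunits are hydroxylated by prolyl hydroxylases and destroyed through the VHL protein. The dimer recognises a short hypoxia response element (HRE) core, ACGTG or GCGTG, which either isoform can bind, so the core alone does not tell which isoform occupies a site.

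The series mapped HIF-1α, HIF-2α and HIF-1β by ChIP-seq, immunoprecipitation of chromatin followed by sequencing, in 50 libraries with 16 inputs. RCC4 is a kidney cancer line with defective VHL, so its α subunits are present in oxygen, and it was grown in normoxia. HKC-8, a renal proximal tubular line, was kept at 3% oxygen for 6 h, or at 0.5% oxygen with exposures of 6 h, 16 h and 48 h. In a separate experiment at 0.5% oxygen for 16 h, wild-type (WT) HKC-8 was set beside a HIF-1α knockout (KO) and a HIF-2α KO, each 1 clone. HepG2, a liver cancer line, was exposed to 0.5% oxygen for 16 h. Each antibody and condition had 2 libraries, which the study describes as independent experiments, and the p-values below measure only the spread between them. The knockout lines were not immunoprecipitated for the isoform they lack, so these files hold no check of the deletion.

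The deposited lists hold called peaks without read depth or signal, so a site with no call cannot be given a level and a missing call is not absence of binding. List length differed widely, from 237 peaks (48 h, HIF-2α replicate 2) to 8279 (WT HIF-1β replicate 2). The RCC4 lists had 5680 and 2120 peaks for HIF-1α, 4317 and 2990 for HIF-2α, and 911 and 1305 for HIF-1β. In HepG2 the 2 libraries of each α antibody did not resemble each other, so that a library of at least 1 label may not hold what the label says, and each HepG2 result by α antibody below carries this doubt. The libraries labelled HIF-1α replicate 2 and HIF-2α replicate 1 had 28.7% and 30.6% of their peaks within 1 kb of a transcription start site (TSS), as the HIF-1β libraries did (31.6% and 31.1%), whereas those labelled HIF-1α replicate 1 and HIF-2α replicate 2 had 6.73% and 8.08%. The first pair shared 50.05% of the shorter list and the second pair 33.1%, against 34.9% for the libraries labelled HIF-1α, 25.9% for those labelled HIF-2α and 44.4% for replicate 2 of both labels. Whether any library departs from its label, and which, cannot be told from these lists.

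The HRE cores nearest the centres of several HIF-1-only sites are shown first, since the core is the letter sequence that the dimer reads and since these sites are followed through the cell lines below. Capitals mark the core and lower case its neighbouring 12 bases on each side, read 5′ to 3′ on the strand that holds the core (GRCh37). The first 5 hold ACGTG and lay at the promoters of the genes named.
NARF: ccccggcgccgtACGTGgagtgagcctgc
FAM174B: ggcggaacgcggACGTGctgcaggcaggg
ARL10: gggacgagtgggACGTGagtgccgggccg
P4HA2: cgtgaggtggggACGTGgcggcggctcaa
MGAT5B: tgtgcagccggtACGTGgtggagcgtcag
They are chr17:80416375-80416403, chr15:93352410-93352438, chr5:175792736-175792764 and chr17:74868854-74868882 on the plus strand for NARF, FAM174B, ARL10 and MGAT5B, and chr5:131563596-131563624 on the minus strand for P4HA2.

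The next 4 hold GCGTG, the core that was found near a larger share of HIF-1-only sites than of either other class.
COX20: cccgaggctcgtGCGTGtgagcacgcgcg
CGGBP1: taaaaactggggGCGTGggtgggcggagc
ALDOC: ccgcctctgaggGCGTGgtcttgccccgg
SLC2A1: cccagcagggccGCGTGgacggcgcggcg
They are chr1:244998598-244998626, chr3:88108295-88108323 and chr1:43424006-43424034 on the plus strand for COX20, CGGBP1 and SLC2A1, and chr17:26904005-26904033 on the minus strand for ALDOC. The last core is from a site that was HIF-1-only in RCC4 but carried HIF-2α in both WT HKC-8 replicates.
ID1: gaacagagggaaACGTGgaatccagagtg
It is chr20:30196289-30196317 on the minus strand.

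An HRE core lay within 100 bp of the centre at 173 of the 256 HIF-1-only sites (67.6%, 95% interval 61.5 to 73.3%). Sites with both isoforms had nearly the same share (68.3%) and HIF-2-only sites a lower one (44.1%), while all RCC4 HIF-α sites had 61.0% and the 9321 sites of the series 51.6%. Windows of the same size 2 kb away from the HIF-1-only sites held a core in 26.4%. Of 35116 RefSeq promoters, searched in the longer window given below, 48.4% held a core. The intervals here and below are exact binomial (Clopper-Pearson) and cover counting error only, and a match is a description of letters, not of a bound element. The remaining sites, among them the leading sites RLF, VGLL4, AIG1, CBX5, RAPGEF6 and TMEM45A, had no core in the window.

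The 2 forms of the core were unevenly spread over the classes. ACGTG was found near 45.7% of HIF-1-only sites, 56.8% of sites with both isoforms and 28.8% of HIF-2-only sites, on either strand. GCGTG was found near 39.8%, 28.9% and 20.7%, respectively. Of 301 cores at HIF-1-only sites 151 were ACGTG and 150 GCGTG, whereas sites with both isoforms had 339 and 181 of 520. At least 2 cores were present at 31.3% of HIF-1-only sites, 26.9% of sites with both isoforms and 10.8% of HIF-2-only sites. Among 35116 RefSeq promoters (250 bases before to 50 after the start, in a GRCh38 table and so a longer window), ACGTG was found in 21.4% and GCGTG in 36.5%, so GCGTG is common in promoters as such.

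**Figure D1:**
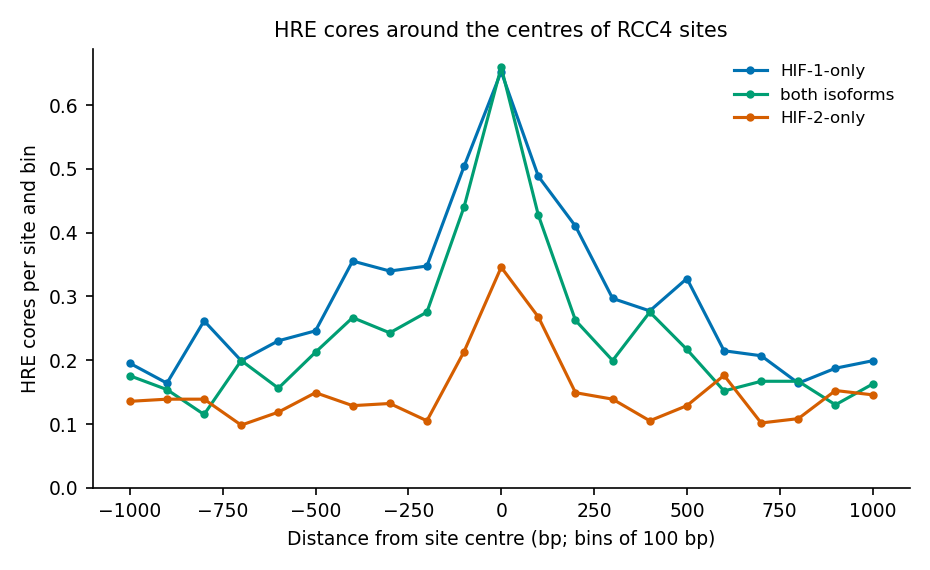
HRE cores (ACGTG or GCGTG, either strand) per site in 100-bp bins, plotted against distance from the site centre in bp, with 1 line for each class of RCC4 site. HIF-1-only sites reached 0.652 cores per site in the central bin and sites with both isoforms 0.659, HIF-2-only sites 0.346. At 1000 bp to either side the HIF-1-only line lay at 0.195 and 0.199.

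Base composition and other motifs differed between the classes as well. The HIF-1-only sites had a median G+C content of 61.7% within 100 bp of the centre and a ratio of observed to expected CpG of 0.723, against 48.3% and 0.246 at HIF-2-only sites and 51.2% and 0.329 at sites with both isoforms. The GC box GGGCGG, the letters read by SP1-type factors, was present at 38.7% (HIF-2-only 5.42%, both isoforms 16.3%, all RCC4 sites 17.7%) and the ETS word CCGGAA at 14.5% (2.03% and 4.34%). In contrast, the AP-1 words TGACTCA and TGAGTCA were present at 6.64% of HIF-1-only sites, 20% of HIF-2-only sites, 17.6% of sites with both isoforms and 17.2% of all RCC4 sites. RefSeq promoters held the GC box in 45.0%, CCGGAA in 17.2% and AP-1 in 4.95%. The E-box CACGTG, which contains ACGTG, was found at 7.42% of HIF-1-only sites, CCAAT at 21.9% and the forkhead word TGTTTAC at 0.391%.

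HIF-1-only sites were promoter sites more often than the other RCC4 classes. The centre lay within 1 kb of the TSS of a protein-coding transcript at 149 of 256 (58.2%, 51.9 to 64.3%), against 2.37% of HIF-2-only sites, 19.96% of sites with both isoforms, 22.4% of all RCC4 HIF-α sites and 16.3% of the series. The median distance to the nearest TSS was 0.307 kb, compared with 50.6 kb for HIF-2-only sites and 20.4 kb for sites with both isoforms. Still, 29.3% of HIF-1-only sites lay more than 10 kb away. Centres fell in untranslated exon parts at 20.3%, in coding exons at 9.77%, in introns at 34.4% and between genes at 35.5%. At 21 of the 149 promoter sites at least 2 genes started within 1 kb, so the gene named is not the only candidate there.

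The promoter share moved with the RCC4 replicate, since HIF-1α replicate 1 had 39.0% of its own peaks within 1 kb of a TSS and replicate 2 had 16.2%. Applied to replicate 1 of each antibody alone the rule gave 3977 sites with a promoter share of 46.9%, and to replicate 2 alone 1552 sites with 16.0%. RCC4 HIF-2α lists had 9.51% and 5.08%.

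**Figure D2:**
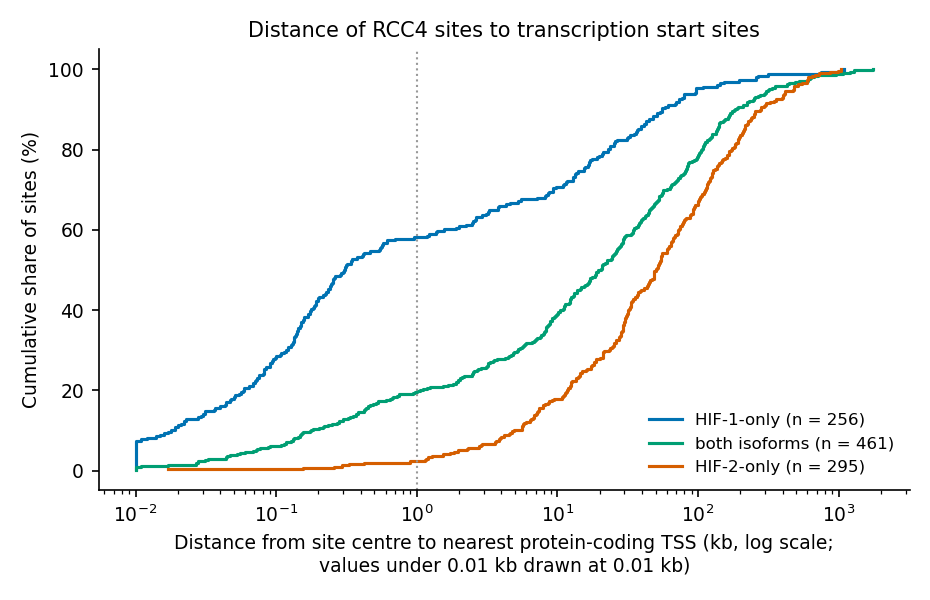
Cumulative share of sites (%) against the distance from the site centre to the nearest protein-coding TSS (kb, log axis), 1 line for each class of RCC4 site, with a dotted line at 1 kb. At that line 58.2% of HIF-1-only sites, 19.96% of sites with both isoforms and 2.37% of HIF-2-only sites have been passed.

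The HIF-1-only sites with the highest HIF-1α scores in RCC4 lay at promoters of genes of varied function. Scores are those of the peak caller, which rise with significance and with depth, and serve only to order sites within a list. NARF, which encodes a prelamin A binding protein, ranked first (chr17:80415174-80417580, untranslated exon, 0.142 kb from the TSS), with HIF-1α scores of 2658 and 1773 and HIF-1β scores of 745 and 398. FAM174B followed (chr15:93351556-93353272, intron, 0.614 kb), with 2359 and 1380 for HIF-1α and 729 and 682 for HIF-1β. The zinc finger gene RLF (chr1:40626437-40628076, coding exon, 0.197 kb) had 2691 and 1060 for HIF-1α and 511 and 620 for HIF-1β. Each of these 3 sites was called by both HIF-1β replicates.

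COX20, an assembly factor of cytochrome c oxidase (chr1:244997632-244999520, 0.342 kb), scored 1721 and 769, and VGLL4, a cofactor of TEAD transcription factors (chr3:11683479-11684931, intron, 1.18 kb), 1358 and 906. The next 7 were CGGBP1, AIG1, CBX5, FBXO42, RAPGEF6, TMEM45A and ARL10, with replicate 1 scores from 988 to 1772. CBX5 encodes heterochromatin protein HP1α and FBXO42 a ubiquitin ligase subunit. Of these 12 leading sites all but VGLL4 and AIG1 (4.31 kb) lay within 1 kb of a TSS.

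At the other end, the lowest ranked sites were near FGF13, with HIF-1α scores of 51.3 and 65.2, and MBL2, with 52.8 and 51.6, just above the lowest score in any list (50, p 1e-05). Just outside the rule, a site near CPOX, a heme synthesis gene, had HIF-1α scores of 248 and 68.3 and was removed by a HIF-2α score of 50.2 in replicate 1, and a site near CDH2, the N-cadherin gene, had 369 and 339 and was removed by 50.1 in HIF-2α replicate 2. Only 4 HIF-1-only sites had a HIF-2α peak within 1 kb, whereas 109 had one within 100 kb.

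In RCC4 HIF-1β was called at 30.5% and 33.6% of HIF-1-only sites in its 2 libraries (background 33.5% and 30.1%). It was present in either at 110 (43.0%, 36.8 to 49.3%), close to the 40.0% of all RCC4 HIF-α sites, and in both at 54 (21.1%, background 23.5%). HIF-2-only sites had HIF-1β in either at 4.75% and sites with both isoforms at 71.4%. The HIF-1-only sites with HIF-1β were promoter sites in 76.4%, those without in 44.5%, and the GC box was present at 55.5% and 26.03%, while HRE cores were as frequent in each (67.3% and 67.8%). HIF-1β was called at 223 of the 256 (87.1%, background 83.3%) in at least 1 library of any line.

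Calls elsewhere varied with rank among the HIF-1-only sites. Split by mean RCC4 rank into 4 groups of 64, HIF-1β in RCC4 was called at 81.3%, 51.6%, 31.3% and 7.81% from the highest to the lowest group. The HRE share did not follow this order, at 67.2%, 67.2%, 73.4% and 62.5%. The median number of libraries with a call outside RCC4, of 44, was 16, 11, 8 and 4.

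Each gene list examined held at most 3 genes with a HIF-1-only site, and most held more genes with sites of both isoforms. Of 22 glycolysis and glucose uptake genes, 3 (SLC2A1, HK1 and ALDOC) had a HIF-1-only site within 10 kb of a TSS, 11 a site with both isoforms, among them PGK1, LDHA, ENO1 and PFKFB3, and none a HIF-2-only site. These were 13.6%, 50% and 0% of the list, where the shares among all 19807 protein-coding genes were 1.21%, 1.04% and 0.268%. SLC2A1, the glucose transporter GLUT1, had a HIF-1-only site and a site with both isoforms. The lists of pyruvate, lactate and mitochondrial genes (1 of 17, SLC16A3, the lactate exporter MCT4), glycogen metabolism (1 of 10, the glycogen synthase GYS1), histone lysine demethylases (1 of 20, KDM2A), collagen hydroxylases and lysyl oxidases (1 of 12, P4HA2), carbonic anhydrases and pH genes (1 of 7, SLC16A3 again) and mTOR and stress genes (1 of 13, DDIT4) each had 1 gene. Those shares ran from 5% to 14.3%, above that of all genes, but each rests on 1 gene. None of 12 oxygen sensing genes, 11 secreted vascular factors or 12 growth and kidney cancer genes had a HIF-1-only site, where sites with both isoforms met 0, 4 and 3.

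Individual members of these lists differed in where else they were seen. The ALDOC promoter, that of the brain-type aldolase (chr17:26903436-26904648, 0.076 kb), had HIF-1α scores of 764 and 436 in RCC4, was called in 4 HepG2 libraries and in no HKC-8 library. HK1, the hexokinase of most tissues (chr10:71077345-71080452, 0.253 kb), with 1194 and 145, was called in 6 libraries. P4HA2, a collagen prolyl 4-hydroxylase subunit (chr5:131562267-131564771, 0.007 kb), with 1478 and 211, was called in 17. SLC2A1 (chr1:43422657-43425428, 0.465 kb) had 917 and 61.3 and was also called in 17. DDIT4, an inhibitor of mTORC1 (chr10:74031897-74036079, 0.310 kb), with 560 and 134, was called in 30.

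Outside RCC4, 222 of the 256 HIF-1-only sites had a call in at least 1 of 44 libraries (86.7%, background 83.6%), and without HepG2 201 had one (78.5%, background 79.6%). A site was called in a median of 9 libraries, and 30 sites in at least 20. The 8 most recurrent were NARF (32 libraries), VGLL4 (31), MGAT5B, DDIT4 and CCDC107 (30 each), FAM174B and RLF (28 each), and COX20 (25, a number that TMEM45A and the site near NDRG1 also reached at lower RCC4 rank). FAM174B and RLF had calls in all 12 HKC-8 HIF-1α libraries, in none of 12 HIF-2α libraries and in 12 of 14 HIF-1β libraries.

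**Figure D3:**
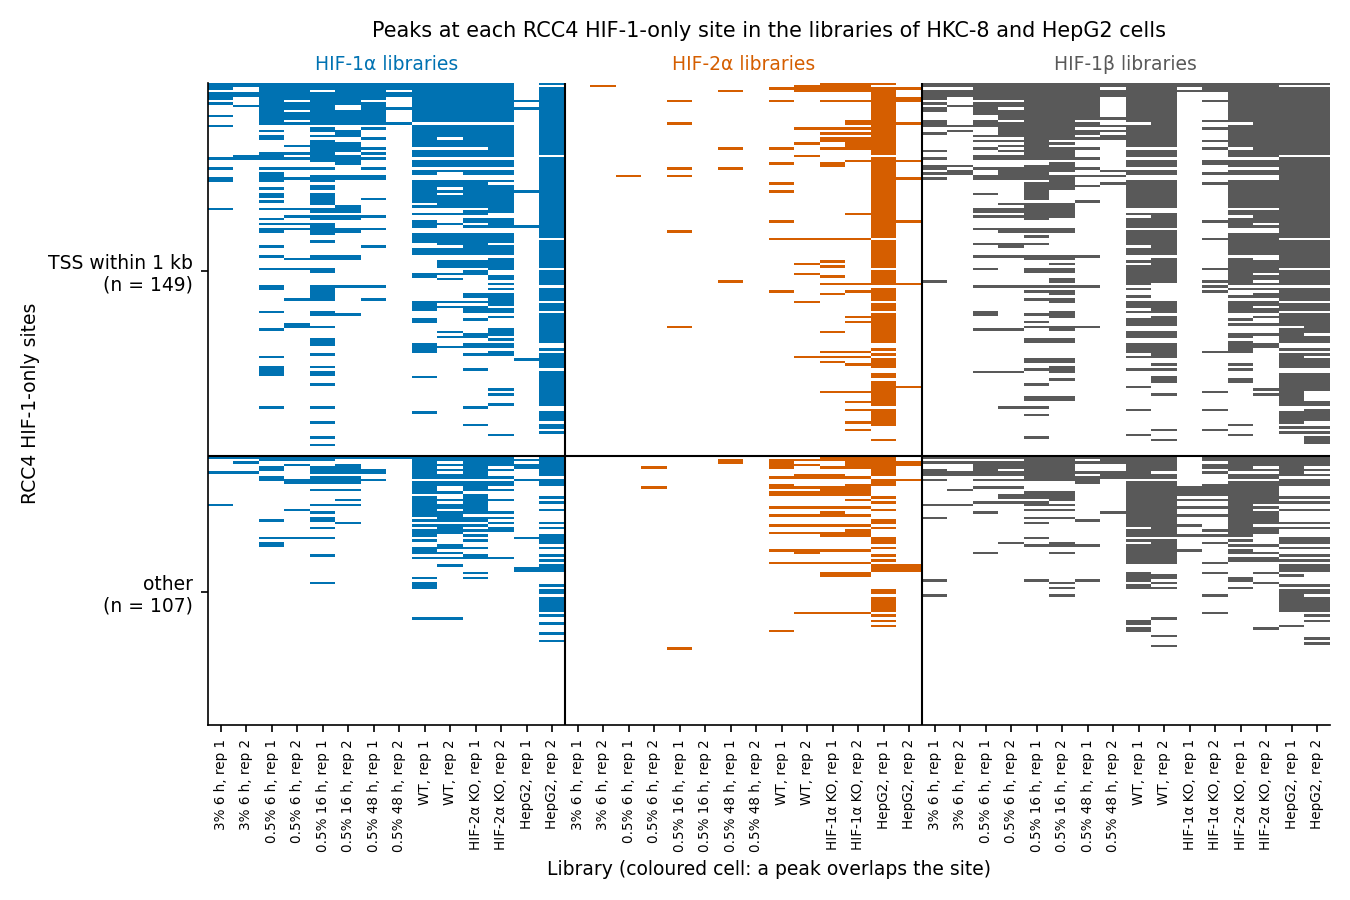
Calls at each of the 256 HIF-1-only sites (rows) in each of the 44 libraries outside RCC4 (columns, by condition and antibody), with sites within 1 kb of a TSS (149) above the other 107 and rows ordered by the number of libraries. Filled cells are calls. Within each unmodified HKC-8 condition the HIF-2α columns hold fewer calls than the HIF-1α columns, and the HIF-2α columns of the HIF-1α KO hold 16.8% and 20.3%.

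HKC-8 libraries took no part in choosing the sites, and in them HIF-1α was called at more of the HIF-1-only sites than HIF-2α. At 0.5% oxygen for 6 h, HIF-1α was called at 23.4% and 13.7% of the HIF-1-only sites (background 12.6% and 8.51%) and HIF-2α at 0.391% and 0.781% (background 12.5% and 16.2%). At 16 h the shares were 35.5% and 19.9% (19.7% and 12.4%) for HIF-1α and 2.73% and 0% (16.5% and 22.8%) for HIF-2α. Each HIF-1α share thus lay above its background and each HIF-2α share below it, and no value of one antibody overlapped those of the other within either time. Sites with both isoforms had similar HIF-1α shares, 21.5% and 15.2% at 6 h and 32.3% and 22.6% at 16 h. Their HIF-2α shares were 25.6% and 29.5%, then 32.3% and 41.6%. At these times the 2 classes thus differed in HIF-2α rather than in HIF-1α.

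At 48 h HIF-1α was called at 13.3% and 3.13% (background 9.66% and 4.07%) and HIF-2α at 2.34% and 0% (18.6% and 1.82%). At 3% oxygen for 6 h the shares were 6.64% and 3.91% (4.56% and 2.67%) for HIF-1α and 0% and 0.391% (5.29% and 10.4%) for HIF-2α. A count of 0 of 256 allows a share of up to 1.43%. In these 2 conditions the antibodies were closer but still did not overlap.

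WT cells from the knockout experiment had HIF-1α calls at 41.0% and 33.6%, near the background of 40.3% and 35.5%, and HIF-2α at 9.77% and 10.2%, where 50.9% and 54.7% of all RCC4 sites had a call. Sites with both isoforms had HIF-1α at 64.2% and 58.4% in WT, and HIF-2α at 70.1% and 70.5%. Over the 5 conditions the mean HIF-1α share was 19.4% and the mean HIF-2α share 2.66%, a difference of 16.8 percentage points that was above 0 in 5 of 5 conditions (5.08 to 27.3 points). The exact permutation p was 0.000257 (two-sided, 20 libraries, antibody labels exchanged within condition), which is the smallest these libraries allow, and 0.00116 after Benjamini-Hochberg adjustment over 9 tests. The contrast with HIF-2-only sites was likewise separated. The share of HIF-1-only minus HIF-2-only sites called was 17.7 points in HIF-1α libraries and -15.3 points in HIF-2α libraries, a difference of 33.0 points (exact permutation p 0.000257, adjusted 0.00116, 5 of 5 conditions). With lists of equal length the differences were 7.70 and 12.7 points, and at the sites with RCC4 HIF-1β the first was 27.9, each with the same p.

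**Figure D4:**
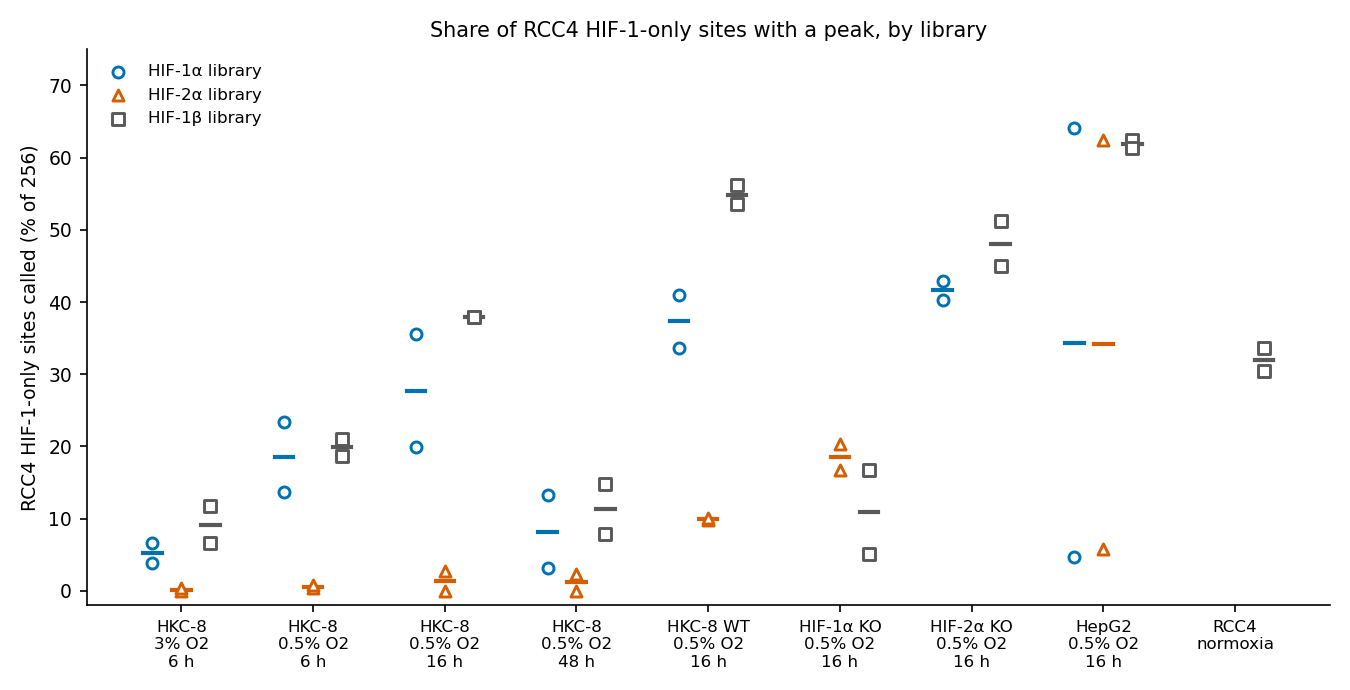
Share of the 256 HIF-1-only sites with a peak (%), by condition and antibody, with a point for each library and a bar at the mean of the 2. In HKC-8 HIF-1α lies between 3.13% and 41.0% and HIF-2α between 0% and 10.2% in the unmodified cells, whereas in HepG2 the libraries of each α antibody split, at 4.69% and 64.1% for HIF-1α and 62.5% and 5.86% for HIF-2α.

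By the same rule in WT HKC-8, 50 of the 256 sites were again HIF-1-only (19.5%, background 3.95%), and these 50 made up 76.9% of the 65 RCC4 HIF-α sites of that kind. They were led by NARF, FAM174B, RLF, COX20, VGLL4 and CGGBP1. Only 2 sites were HIF-2-only in WT (background 13.9%), 10 had both isoforms (25.6%), 132 had no HIF-α call (51.6%, background 33.5%) and the other 62 were mixed between replicates. HIF-2α in both WT replicates was seen at 14 sites (5.47%, background 46.7%). Among them were DDIT4, ID1 (3.24 kb), an inhibitor of helix-loop-helix factors, the splicing regulator RBFOX2 (0.019 kb), a site 80.2 kb from the stress gene NDRG1, the heat shock gene HSPB1 and the ETS gene ELK3. At DDIT4 the WT scores were 315 and 80.9 for HIF-1α, 69.9 and 51.2 for HIF-2α, and at ID1 they were 230 and 136 for HIF-1α and 131 and 232 for HIF-2α, so DDIT4 was near the lowest score for HIF-2α and ID1 was not.

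The shared subunit was measured in the same cells. HIF-1β was called at 18.8% and 21.1% of HIF-1-only sites at 6 h (background 17.2% and 21.2%), 37.9% and 37.9% at 16 h (30.3% and 35.4%), 14.8% and 7.81% at 48 h (22.4% and 9.84%), and 11.7% and 6.64% at 3% oxygen (14.6% and 14.1%). These were near or below background except at 16 h.

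The severity and duration of hypoxia were compared over the 3 antibodies together, exchanging labels within antibody. At 6 h the mean share of HIF-1-only sites called was 4.88% at 3% oxygen and 13.02% at 0.5%, a difference of -8.14 points (-13.3 for HIF-1α, -10.7 for HIF-1β and -0.391 for HIF-2α). The exact permutation p of 0.0185 became 0.0556 on adjustment and so did not pass. Between 6 and 16 h the mean went from 13.02% to 22.3% (9.31 points, exact permutation p 0.0833, adjusted 0.15) and between 6 and 48 h to 6.90% (-6.12 points, exact permutation p 0.0648, adjusted 0.146). Neither difference passed. By antibody the 48 h change was -10.4 points for HIF-1α, -8.59 for HIF-1β and 0.586 for HIF-2α. The HIF-2α and HIF-1β lists of replicate 2 were shorter at 48 h (237 and 626 peaks, against 1383 and 1066 in replicate 1). Both HIF-1α lists had 1073 peaks there, with shares of 13.3% and 3.13%. With every list cut to the length of the shortest the 48 h difference was -2.41 points (exact permutation p 0.111), and at the sites with RCC4 HIF-1β it was -10.8. The 3% difference was -15 points at the sites with RCC4 HIF-1β. The background shares of all RCC4 HIF-α sites, given above by library, moved too. Replicate for replicate they were lower at 3% oxygen and higher at 16 h than at 0.5% for 6 h, for each antibody. At 48 h they were lower for HIF-1α, and for HIF-2α and HIF-1β higher in replicate 1 and lower in replicate 2. Background differences were not tested, so whether the changes are particular to HIF-1-only sites cannot be told.

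The HIF-1β subunit at HIF-1-only sites was then compared between the knockouts, which asks which α subunit accompanied it. HIF-1β was called at 53.5% and 56.3% in WT (background 61.5% and 66.8%), at 5.08% and 16.8% in the HIF-1α KO (43.6% and 54.9%), and at 51.2% and 44.9% in the HIF-2α KO (44.5% and 40.0%). The HIF-1α KO shares were thus below every other value, at a mean of 10.9% against 48.0% in the HIF-2α KO. The difference of -37.1 points had an exact permutation p of 0.333 (adjusted 0.429), the smallest that 2 against 2 libraries can give. The HIF-1β lists held 3387 and 5786 peaks in the HIF-1α KO and 2550 and 2085 in the HIF-2α KO. With lists of equal length the difference was -42.6 points. Each knockout was 1 clone, so clone and genotype cannot be told apart. At HIF-2-only sites HIF-1β was called at 39.0% and 49.8% in the HIF-1α KO and 16.9% and 18.3% in the HIF-2α KO, the opposite order.

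Site by site, 123 HIF-1-only sites had HIF-1β in both WT replicates (48.0%, background 58.8%). Of these, 89 had it in neither HIF-1α KO replicate (72.4%, background 19.1%) and 8 in neither HIF-2α KO replicate (6.504%, background 24.1%). HIF-1β was called in both HIF-2α KO and neither HIF-1α KO replicate at 70 of them (56.9%, background 11%, that is 106 of the 968 RCC4 sites with HIF-1β in both WT replicates), and the reverse was seen at none. CBX5 had HIF-1β scores of 1448 and 1199 in WT and 1253 and 729 in the HIF-2α KO, RLF 360 and 607 and then 347 and 596, and FAM174B 152 and 244 and then 167 and 262. None of these 3 sites had a HIF-1β call in the HIF-1α KO.

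HIF-1β was called in both HIF-1α KO replicates at 11 HIF-1-only sites (4.30%, background 42.2%), of which 10 had HIF-2α in both replicates of that knockout too, as 98.7% of all RCC4 sites with such HIF-1β calls did. They were led by NARF, with HIF-1β scores of 104 and 153 in the HIF-1α KO against 650 and 703 in WT, and included MGAT5B, with 193 and 292 against 780 and 1031. HIF-2α itself was called at 9.77% and 10.2% of HIF-1-only sites in WT and at 16.8% and 20.3% in the HIF-1α KO (background 54.6% and 58.5%), a difference of 8.59 points (exact permutation p 0.333, adjusted 0.429). It was 3.94 points with the upper 50% of each list by score and 5.66 with lists of equal length.

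A gain of HIF-2α in both HIF-1α KO replicates with none in WT was seen at 12 HIF-1-only sites (4.69%, background 3.28%), and the reverse at none (background 1.94%). NARF had HIF-2α scores of 701 and 485 there, LRRC2 167 and 284, and VGLL4 187 and 68.1, examples that were picked after their values were seen. The share was near the background and HIF-2α list lengths were 4537 and 6749 in WT and 5228 and 6540 in the knockout.

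In the HIF-2α KO, HIF-1α was called at 43.0% and 40.2% of the HIF-1-only sites (background 32.7% and 26.4%) against 41.0% and 33.6% in WT. The difference of 4.30 points had an exact permutation p of 0.667 (adjusted 0.75) and the values of the 2 groups overlapped. It was 14.3 points with lists of equal length, 9.55 at the sites with RCC4 HIF-1β and 7.59 at a score of at least 100, with exact permutation p of 0.333 or more. KDM2A, a histone demethylase gene (chr11:66885426-66887440, 0.301 kb), had HIF-1α scores of 107 and 175 in the HIF-2α KO and no HIF-1α call in WT, where HIF-1β scored 118 and 241. Gains and losses of HIF-1α calls in the HIF-2α KO were not counted, so this is 1 site and not a trend.

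**Figure D5:**
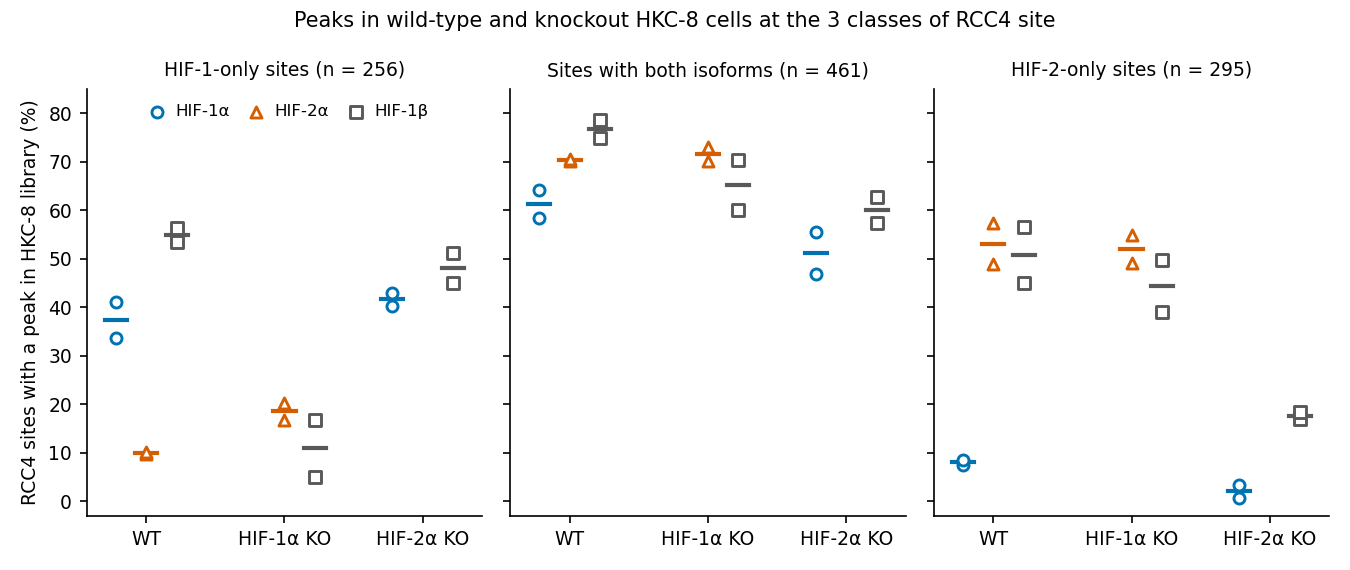
Share of sites with a peak (%) in WT, HIF-1α KO and HIF-2α KO HKC-8, with points for libraries, in 1 panel for each class of RCC4 site. For HIF-1β the HIF-1-only panel drops in the HIF-1α KO (5.08% and 16.8%) and the HIF-2-only panel in the HIF-2α KO (16.9% and 18.3%). Sites with both isoforms have 74.8% and 78.5% in WT. They are lower in each knockout, at 60.1% and 70.3% in the HIF-1α KO and 62.7% and 57.3% in the HIF-2α KO.

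The 2 HKC-8 experiments differed at the most G+C-rich HIF-1-only sites, although both hold WT cells at 0.5% oxygen for 16 h. In the 64 sites with the highest G+C (71.1 to 85.1%), HIF-1α was called at 65.6% and 32.8% in the severity and duration experiment but at 28.1% and 23.4% in the knockout experiment. In the 64 with the lowest (27.9 to 51.2%) the order was the opposite, at 15.6% and 7.81% and at 39.1% and 31.3%. Over all RCC4 HIF-α sites, the 411 with the highest G+C (59.2 to 85.1%, a wider range) had HIF-1α at 50.6% and 32.6% in the first and 49.1% and 44.5% in the second, and the 412 with the lowest (21.4 to 46.3%) at 6.80% and 4.37% and at 34.5% and 30.8%. In the next group of 64 HIF-1-only sites (61.7 to 71.1%), HIF-1α was called at 37.5% and 21.9% in the first experiment. The second had 45.3% and 39.1% there. Among the HIF-1-only groups a lower share in the knockout experiment was thus seen only in the most G+C-rich one. The top groups of HIF-1-only and of all RCC4 sites cover unlike G+C ranges, so they cannot be compared directly. The lists also differed in length and peak width, which enter every overlap. HIF-1α had 1313 and 951 peaks of median width 337 and 258 bp in the first experiment at 16 h. In the second, WT HIF-1α had 1913 and 1535 peaks of 998 and 1059 bp. The difference between the experiments was not tested, nor the part of G+C, list length or peak width in it.

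Of 50 HIF-1-only sites with a call in at least 6 of the 24 severity and duration libraries, 8 had none in the 14 libraries of the knockout experiment (16.0%, background 4.29%). They were P4HA2 and SLC2A1 (13 of 24 libraries each), ZNF653 (12), KDM7A and NCKIPSD (11 each), EPOP (9), ACOT6 (8) and DENND4B (6), a comparison and names chosen after the values were seen. The KDM7A site lay 53.8 kb from the TSS. Their median G+C content was 76.4%, against 66.2% at the other 42. Over all RCC4 sites, the 17 of 396 without a call in the knockout experiment had a median of 77.1%, against 55.7% at the rest. Knockout shares therefore leave out sites such as the SLC2A1 and P4HA2 promoters. The part of base composition, list length or peak width in the calls was not tested.

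In HepG2 176 HIF-1-only sites had a call in at least 1 library (68.8%, background 41.8%), where HIF-2-only sites had 11.2% and sites with both isoforms 55.7%. HIF-1β, which does not depend on the α labels, was called at 62.5% and 61.3% (background 35.9% and 31.5%), compared with 5.42% and 2.37% at HIF-2-only sites and 49.2% and 44.03% at sites with both isoforms. It was in both libraries at 148 sites (57.8%, background 29.8%).

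As labelled, HIF-1α in HepG2 was called at 4.69% and 64.1% (background 16.4% and 38.2%) and HIF-2α at 62.5% and 5.86% (32.3% and 20.5%), with means of 34.4% and 34.2% (difference 0.195 points, exact permutation p 1). The spread within each label was thus as wide as the scale of the measurement. The libraries labelled HIF-1α replicate 2 and HIF-2α replicate 1 both called 154 sites (60.2%), of which 144 had HIF-1β in both libraries (93.5%). The libraries labelled HIF-1α replicate 1 or HIF-2α replicate 2 called 22 (8.59%). Shares of all RCC4 HIF-α sites with these joint calls were not computed. Whether the joint shares are particular to HIF-1-only sites therefore cannot be told. No isoform preference in HepG2 can be read from these labels.

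HIF-1-only sites seen in all lines were mostly promoters, where 22.4% of all RCC4 HIF-α sites lay within 1 kb of a TSS. In HKC-8 and HepG2 both, 155 HIF-1-only sites were called (60.5%, background 37.8%), and 80.6% of them lay within 1 kb of a TSS. Of 46 called in HKC-8 and not in HepG2, led by CBX5, ARL10, CTIF (TSS 135.5 kb away) and MGAT5B, 32.6% did. Of 21 called in HepG2 and not in HKC-8, led by OR10H1 (13.4 kb), ALDOC and ANKRD10 (42.8 kb), 23.8% did. The leading names of these groups were taken after the groups were seen. Promoter shares of all RCC4 sites split by line were not computed. Whether the shares in these groups are particular to HIF-1-only sites therefore cannot be told.

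The 34 HIF-1-only sites called in neither line had a TSS within 1 kb in 11.8% and a median TSS distance of 19.9 kb, with RCC4 HIF-1β at 3 and an AP-1 word at 8 (23.5%). They were led by sites whose nearest TSS was that of OTOR (73.2 kb away), ABTB3 (16.7 kb), PPARGC1A (153 kb) and EPB41L1 (11.8 kb). Over all 256 sites, 97.3% of promoter sites and 71.96% of the others were called in at least 1 library outside RCC4, and 87.2% and 43.0% in HepG2. An HRE core made less difference, with any HepG2 call at 72.8% of sites with a core and 60.2% of those without, and HIF-1α in WT HKC-8 at 44.5% and 48.2%.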

How the data were processed

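Per the submitters' processing notes, reads were trimmed with Trim Galore 0.3.3, aligned to GRCh37 (hg19) with BWA 0.7.5a-r405 and handled with SAMtools 0.1.19, Picard 1.106 and bedtools 2.17.0, and peaks were called with MACS (version not given in the sources used here). The authors deposited 1 peak list per ChIP library, with coordinates and a peak score, read here as -10 times log10 of the p-value and used only to rank and to filter. The lists hold all calls and no read depth. The inputs were not used here.

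Peaks were merged on overlap of at least 1 bp, and a library called a site if any peak overlapped it. Sites were named by the nearest protein-coding TSS (GENCODE release 44 lifted to GRCh37, 89217 transcripts). Shares have Clopper-Pearson intervals (95%). Libraries were compared by exact permutation (scipy 1.17.1, Python 3.11.15, pysam 0.24.0), 9 tests adjusted by Benjamini-Hochberg with 0.05 as threshold, and the code was tested on simulated data. Sites named in the text were the 12 of best mean RCC4 rank, the 8 called in most libraries outside RCC4 (ties by rank), up to 6 each that were HIF-1-only or held HIF-2α in both replicates of WT, members of gene lists, and 2 on each side of the rule's edge. Others are said to be chosen after their values were seen. The members, lists and tests were chosen with earlier results of these data known.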

Additional observations from a re-analysis of the deposited data

How the results depend on the processing

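The HIF-1α minus HIF-2α difference at HIF-1-only sites in HKC-8 (16.8 points) and its class contrast (33.0) stayed above 0 under every alternative run, at 7.70 to 27.9 and 12.7 to 45.8 points. Without replicate 1 or 2 they were 12.6 and 20.9, and 29.9 and 36.1, each with the smallest exact permutation p that 10 libraries allow (0.0625), and so no longer passed. The HepG2 difference turned to -0.231 with the upper 50% of each list, to -0.781 with lists of equal length, and ran from -57.8 to 58.2 on leaving out a replicate. The 3% against 0.5% difference was -5.98 at a score of at least 100 (exact permutation p 0.0556), and -9.77 to -6.51 on leaving out a library or replicate, p 0.0741 without replicate 2 of HIF-1α at 3% (-7.68). The 16 h difference had an unadjusted p under 0.05 at a score of at least 100 (8.05, exact permutation p 0.00926) and without replicate 2 of HIF-1α at 16 h (11.9, p 0.0278), with a leave-one-out range of 6.71 to 11.9, and the 48 h difference without HIF-2α replicate 1 at 48 h (-6.51, p 0.0185, range -8.20 to -4.04). The p-values in this section are unadjusted. On leaving out a replicate the knockout differences were -46.1 to -28.1 (HIF-1β), 1.95 to 6.64 (HIF-1α) and 7.03 to 10.2 (HIF-2α), and over the other alternatives the last 2 reached 14.3 and fell to 3.94.

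A score of at least 100 left 145 HIF-1-only sites, and single replicates 1552 to 3977. The promoter share was 16.0 to 46.9% in single replicates, 66.8% within 5 kb and 67.2% with all transcripts. The HRE share was 31.6 to 50.1% in single replicates, 96.1% over whole sites and 88.3% within 250 bp. HIF-1β was at 32.4% with a score of at least 100, 8.004 to 12.5% in single replicates and 21.1% in both.

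Same-numbered HKC-8 libraries deviated together in 4 of 15 pairs (r -0.0128 to 0.354), so a partial pairing by number remains possible. The replicate block leaves the means as they are (16.8 points for the HKC-8 difference) and moved that exact permutation p to 0.00195. No unadjusted p of the 9 tests changed its side of 0.05. Crossing the HepG2 replicate numbers (r -0.737 as labelled) cannot change a difference of means, so it bears on no value here. Leaving out single libraries and the crossed pairing were chosen after seeing the data. List lengths limit each share, and the sites chosen rest on both RCC4 replicates.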
